A study of Mus musculus with 12 samples.

Results

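The Spata (spermatogenesis associated) and Tex (testis expressed) genes were examined in round spermatids, the haploid germ cells that follow meiosis, as they were transcribed and as they were carried on polysomes. The set held the 62 symbols that start with Spata or Tex and go on with a digit, 28 Spata and 34 Tex, of 28643 symbols in the expression table. A total of 66 symbols matched this pattern, and 4 of them were not taken into the set. Both names are catalogue names given for where a transcript was found, so the set is not a gene family by sequence.

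Round spermatids were sorted by flow cytometry, with cycloheximide present to hold ribosomes on their mRNA, from male mice aged 8 weeks. The controls were Igf2bp3+/- mice and the knockouts Igf2bp3-/- mice, so the controls also carried 1 allele with the frameshift that Cas9 introduced into Igf2bp3, which encodes an RNA-binding protein. The mutation was present in every cell of the animal, and the study's methods state that knockout males with impaired fertility were taken. From each genotype 3 libraries of RNA-seq (the cell extract) and 3 of RNC-seq (ribosome nascent-chain complexes, taken as mRNAs with 4 or more ribosomes) were made, 12 libraries in 4 groups. The study's methods describe one extract per mouse, shared between the assays, and call the replicates biological, while no label ties a library or its number to an animal. The p-values therefore measure the spread between these libraries.

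Spermatids stop transcribing as their chromatin condenses, and mRNAs made earlier are stored and translated later, which is why polysome association is followed beside the level in these cells. Members of the set include genes of meiotic recombination and transposon silencing, which act before this stage, and genes whose proteins build the acrosome, the neck and the axoneme, which are assembled after it. A minority, such as Spata2, Spata5 and Tex264, act in many tissues and carry their names by history.

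The values were FPKM, fragments per kilobase of transcript scaled to the size of the library, which compare genes per length, and the read depth behind them is unknown. Igf2bp3 itself was listed at 38.2, 38.6 and 33.4 FPKM in the Igf2bp3+/- RNA-seq libraries and at 31.7, 32.5 and 31.4 in the Igf2bp3-/- ones (adjusted p = 0.335, limma). A frameshift need not remove the mRNA, so this level checks no label. All 8 round spermatid markers were listed, with a summed level of 993 to 1101 FPKM in Igf2bp3+/- and 1246 to 1418 in Igf2bp3-/- RNA-seq, against 7.37 to 10.3 and 7.52 to 9.601 for 6 spermatogonial markers. The 6 Leydig cell markers summed to 14.6 to 21.5 FPKM in Igf2bp3+/- and 46.3 to 52.8 in Igf2bp3-/- RNA-seq, and the 5 blood and macrophage markers to 5.58 to 6.24 and 11.8 to 13.7. The 6 spermatocyte markers summed to 81.5 to 104 and 95.5 to 121 FPKM, and the 6 elongating spermatid markers to 8624 to 11009 and 9587 to 9781. The latter were Prm1, Prm2, Tnp1, Tnp2, Odf1 and Akap4. The study measured mRNA of the Prm and Tnp genes in sorted round spermatids, so this sum does not measure the share of elongating cells. The 6 listed Sertoli cell markers and the 4 peritubular markers summed to at most 2.09 FPKM in any library. No listed marker was at 0 in all 12 libraries. In bulk samples fewer cells of a type and less RNA per cell cannot be told apart.

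Libraries stood apart in the balance of long and short members. Each of the 54 members with a mean of at least 1 FPKM was set against its mean over the 6 libraries of the same assay. Those with 2000 or more coding bases exceeded those under 800 by a median of 0.45 on the log2 scale in Igf2bp3+/- RNA-seq replicate 3. In Igf2bp3-/- RNC-seq replicate 2 they did so by 0.92. The other 10 libraries lay between -0.33 and 0.04. The balance of all genes moved the same way: their deviations correlated with log2 coding length at r = 0.50 and 0.52 over 9156 genes in the libraries named, and at -0.33 to 0.16 in the other 10. The main loading and genotype results are also given without them.

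**Figure D1:**
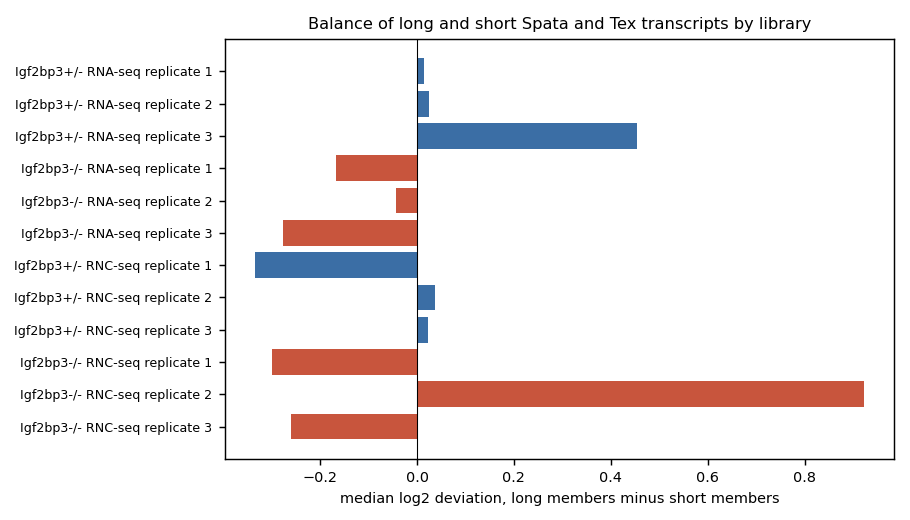
Median log2 deviation of the 12 members with 2000 or more coding bases minus that of the 21 members with under 800, per library, relative to the 6 libraries of the same assay. Only members with a mean of at least 1 FPKM are included. Blue marks Igf2bp3+/- and red Igf2bp3-/-. Igf2bp3+/- RNA-seq replicate 3 at 0.45 and Igf2bp3-/- RNC-seq replicate 2 at 0.92 stand apart from the other 10, which lie between -0.33 and 0.04.

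Most members were abundant in round spermatids. In Igf2bp3+/- RNA-seq 20 members had a mean of at least 100 FPKM, 26 had 10 to 100, 7 had 1 to 10 and 9 were under 1. The median member stood at 44.0 FPKM, beside 1.95 for the genes tested, and 21 members were among the 1000 highest genes. Together the members took 1.18% to 1.51% of the summed FPKM of a library, and the 10 highest took 59.96% of the members' sum in Igf2bp3+/- RNA-seq.

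Genes of meiosis and the early germline were the lowest group, with a median of 0.663 FPKM over 6 members in Igf2bp3+/- RNA-seq. Tex15, which acts in meiotic recombination and in piRNA-directed silencing of transposons, was at 10.9 ± 0.403 FPKM (SD, n = 3), and Tex14, which keeps the bridges between germ cells open, at 13.2 ± 0.253. Tex11, an X-linked gene needed for meiotic crossovers, was listed at 0.563, 0.560 and 0.499 FPKM. Spata22, the partner of MEIOB in recombination, was at 0.0972, 0.0758 and 0.0558 FPKM, and 80.5% of its exonic bases are shared with a gene model on the same strand, so its reads could not be assigned with certainty. The 7 X-linked members were all low, between 0.254 and 7.06 FPKM in their group means.

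Genes of the sperm head, acrosome and neck had a median of 55.6 FPKM over 11 members. Spata20, which is known for head-to-tail attachment, was the highest member of the set at 558, 606 and 714 FPKM in the Igf2bp3+/- RNA-seq libraries. Spata6, which is needed to assemble the connecting piece of the neck, was at 374, 380.5 and 363 FPKM, and the Igf2bp3-/- libraries, at 377, 354 and 414, overlapped them.

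Genes of the tail, axoneme and mitochondria had the highest median, 131 FPKM over 10 members. Spata33, which anchors sperm calcineurin to mitochondria, was listed at 607, 566 and 389.6 FPKM in Igf2bp3+/- RNA-seq, where replicate 3 was the lowest. Tex33, a ciliary microtubule inner protein, was at 336, 346 and 299.7 FPKM and Spata18, a mitochondrial quality control gene also named Mieap, at 198, 201 and 239. Spata45, an axonemal protein with 291 coding bases, was at 245, 230.1 and 132 FPKM, again lowest in replicate 3.

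The 4 other members of the highest 10 had no role assigned here. Spata21 was at 452, 495 and 581 FPKM, Spata3 at 383, 388 and 335 and Spata4 at 359.6, 373 and 308. Spata24 was at 256, 256 and 189 FPKM, and 41.9% of its exonic bases lie in a second gene model on the same strand, so its level is uncertain. The genes that act in many tissues had a median of 23.1 FPKM over 10 members, with the highest level for Spata7, a ciliary gene of photoreceptors, at 119, 119.8 and 126 FPKM. Spata13 was at 0.138, 0.114 and 0.0457. Spata5l1, named for an AAA ATPase, was the lowest of them and was listed at 0 in 7 of the 12 libraries and at no more than 0.104 FPKM in any. GENCODE M21 gives this symbol as a transcript with 0 coding bases, so its level may not be that of the mRNA for the ATPase. Spata13, Spata22 and Spata5l1 were the members with a mean of at most 0.1 FPKM in Igf2bp3+/- RNA-seq.

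**Figure D2:**
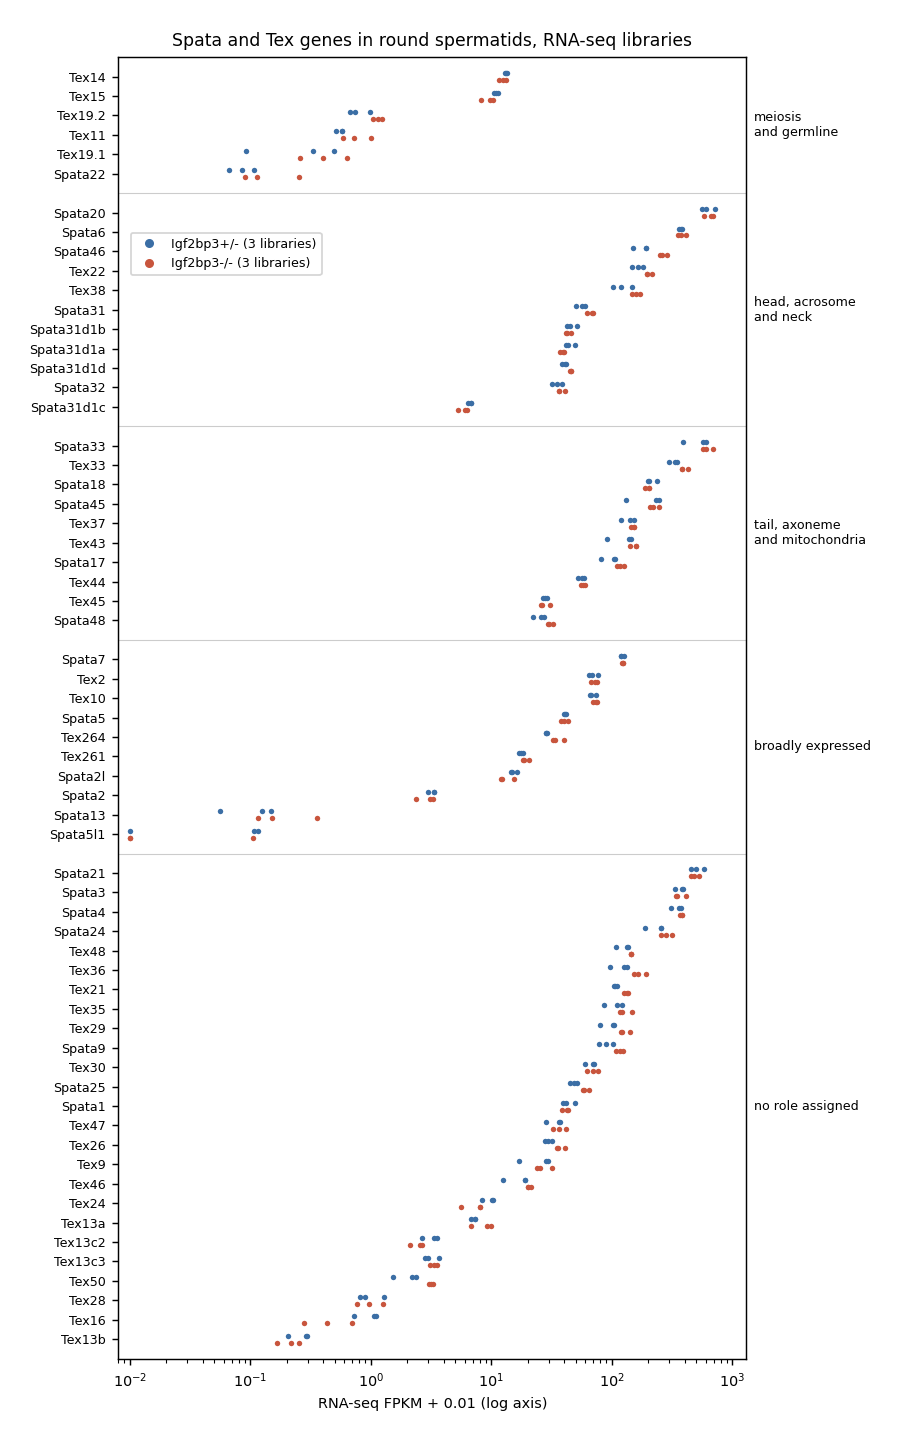
RNA-seq level of each of the 62 members in the 3 Igf2bp3+/- (blue) and 3 Igf2bp3-/- (red) libraries, as FPKM plus 0.01 on a log axis, by role and ordered by the Igf2bp3+/- mean. The Igf2bp3+/- mean is at least 100 FPKM for 20 members and under 1 for 9. The genotypes do not overlap for 27 of the 61 tested, 44.3% beside 22.7% of all genes. No member had an adjusted p under 0.05 between the genotypes (limma).

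Polysome loading, the log2 level in RNC-seq minus that in RNA-seq of the same genotype, differed widely among members. In Igf2bp3+/- spermatids 19 of the 59 members tested were higher in RNC-seq than in RNA-seq and 22 were lower (limma on log2 of FPKM plus 0.1, adjusted p under 0.05). Over all genes tested 17.3% were higher and 26.3% lower. The members' median was -0.11, beside -0.14 over all genes. FPKM is relative within a library, so a higher value means more of that mRNA relative to the others and not more ribosomes on it. Centring each library on its median, which moves the median of all genes by 0.18, gave 23 members higher and 15 lower, a share of 60.5% higher among the calls beside 46.3% without centring. Over all genes this share was 54.1% with centring and 39.7% without it. With the replicate number as a block, as the shared extract of the assays would ask if the numbers mark it, 40 of the 41 were called in Igf2bp3+/- (Tex44 was lost).

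The 6 highest values of members with a mean of at least 1 FPKM belonged to Tex36, Tex43, Tex46, Spata46, Tex13c3 and Tex22. Tex36 was listed at 126, 134 and 96.5 FPKM in Igf2bp3+/- RNA-seq and at 443, 258 and 339 in RNC-seq. Every RNC-seq library was thus above every RNA-seq library, with a difference of 1.53 ± 0.21 (SE) on the log2 scale and adjusted p = 0.000731, or 2.88-fold. Tex43, a microtubule inner protein of the sperm tail, went from 139, 144 and 90.4 FPKM to 380.1, 299 and 257, a log2 difference of 1.33 ± 0.21 (adjusted p = 0.00145).

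Spata46, which shapes the sperm head at the nuclear envelope, was at 190.3, 192 and 149.9 FPKM in RNA-seq and at 429, 337 and 357 in RNC-seq of Igf2bp3+/- spermatids (1.08 ± 0.15 on the log2 scale, adjusted p = 0.00072). Tex46 (1.26 ± 0.18), Tex13c3 (1.01 ± 0.19) and Tex22 (0.96 ± 0.12) were also higher on polysomes, with adjusted p = 0.000909, 0.00296 and 0.000538. Reads of Tex13c3 could be shared with its near-identical copy Gm40. The libraries of the assays did not overlap for any of these 6 genes, which were chosen for the highest values. The share of all genes without overlap between the assays was not computed.

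The 6 lowest of members with a mean of at least 1 FPKM were Tex15, Spata18, Tex24, Tex13c2, Spata32 and Tex14. The rarer Tex16 (-2.21) and Tex13b (-1.62) were called lower as well (adjusted p = 0.00161 and 0.00731, limma). Tex13b was listed at 0.196, 0.287 and 0.280 FPKM in Igf2bp3+/- RNA-seq and at 0, 0 and 0.0505 in RNC-seq. It exceeded the minimum mean of 0.1 FPKM for testing only through its RNA-seq libraries. Its call therefore carries little weight, and its value depends on the pseudocount. Tex15 was listed at 11.3, 10.8 and 10.49 FPKM in Igf2bp3+/- RNA-seq and at 1.61, 0.997 and 2.34 in RNC-seq, a difference of -2.72 ± 0.27 on the log2 scale (adjusted p = 0.000195), or 6.60-fold lower. Spata18 went from 198, 201 and 239 FPKM to 52.5, 64.9 and 63.4, a log2 difference of -1.82 ± 0.13 (adjusted p = 7.05e-05). The assays did not overlap for either gene, both chosen for low values.

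Tex14, at 13.2, 13.5 and 12.98 FPKM in RNA-seq and 6.11, 6.01 and 7.05 in RNC-seq, differed by -1.04 ± 0.13 (adjusted p = 0.000586). Tex24 (-1.55 ± 0.18), Tex13c2 (-1.23 ± 0.23) and Spata32 (-1.08 ± 0.13) were lower too, with adjusted p = 0.000344, 0.00336 and 0.000377. Tex24 has a near-identical copy, Gm6853, with which its reads could be shared. Of the 41 members called in Igf2bp3+/-, 24 were called in the same direction in all 16 fits made (11 higher, 13 lower), the 12 genes named here among them.

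Loading was uneven within each role. Of 10 tail, axoneme and mitochondria genes 4 were called higher and 2 lower, with a median of 0.42. Of 11 head, acrosome and neck genes 3 were higher (Spata46, Tex22 and Tex38) and 8 lower, with a median of -0.73. The lower ones included every Spata31 gene, a family with 2559 to 4083 coding bases, and role was not tested apart from length. Spata6, at 215, 188 and 201 FPKM in RNC-seq, was lower by a log2 difference of -0.89 ± 0.11 (adjusted p = 0.000408, limma). Of 5 meiosis and germline genes tested 1 was higher and 2 were lower, and of 8 genes that act in many tissues 1 was higher (Tex264, a receptor for autophagy of the endoplasmic reticulum, 0.75 ± 0.12, adjusted p = 0.00177) and 4 were lower. Of 25 genes with no role assigned 10 were higher and 6 lower, with a median of 0.24. Among the 10 most abundant members, Spata33 (0.84 ± 0.26), Spata45 (0.77 ± 0.24) and Spata24 (0.55 ± 0.15) were higher, while Spata20 (-0.73 ± 0.17), Spata3 (-0.41 ± 0.12), Spata6 and Spata18 were lower. Of the 16 fits made, Spata18 and Spata6 were called in all, Spata20 in 15, Spata24 in 12, Spata3 in 10, Spata45 in 9 and Spata33 in 8. Without Igf2bp3+/- RNA-seq replicate 3 the calls of Spata33 and Spata45 were lost (adjusted p = 0.0966 and 0.0626), as was that of Spata24 (just over 0.05). With median centring those of Spata20 and Spata3 were lost (adjusted p = 0.0528 and 0.166). Without that replicate the tail group had 1 gene called higher and 1 lower, with a median of 0.30, and the head group again 3 and 8, with a median of -0.65.

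Loading followed the length of the coding sequence among the 54 members with a mean of at least 1 FPKM, which the counts by length cover. The rarer Tex13b, with 558 coding bases, was called lower and is not among them. Of 21 members with under 800 coding bases, 15 were called higher in Igf2bp3+/- and 0 lower, with a median of 0.70. Of 21 members with 800 to 2000 bases 4 were higher and 10 lower, and of 12 members with 2000 bases or more 0 were higher and 10 lower, with a median of -0.73. Other genes of the same sizes showed the same order: 48.6% of 2497 short genes were called higher, and 70.4% of 2487 long genes were called lower. Across the 54 members with a mean of at least 1 FPKM, loading correlated with log2 coding length at Pearson's r = -0.77 and Spearman's rho = -0.78, and across 9102 other genes at -0.63 and -0.62. These are descriptions across genes that share the same 6 libraries, and genes are not independent replicates. Transcript length gave r = -0.67 for the members. Without Igf2bp3+/- RNA-seq replicate 3 the members' r was -0.74, and 30 members were called (11 higher, 19 lower), among them 10 higher and 0 lower of the short members and 0 higher and 9 lower of the long ones. The part of length in loading was not tested apart from the capture of mRNAs with 4 or more ribosomes and from the library preparation.

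**Figure D3:**
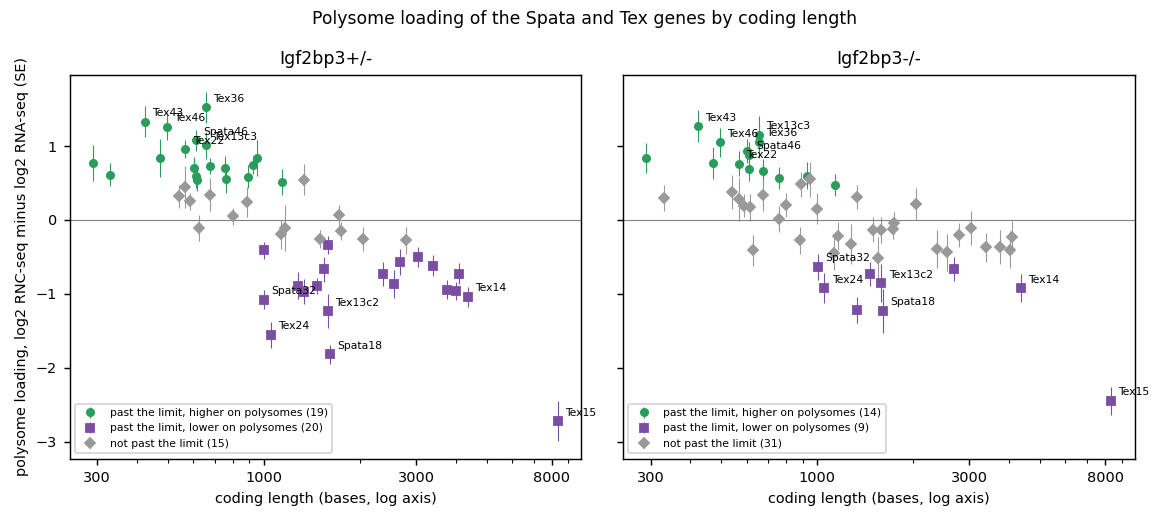
Polysome loading with its SE against coding length for the 54 members with a mean of at least 1 FPKM, in Igf2bp3+/- (left) and Igf2bp3-/- (right). Green circles are called higher on polysomes and purple squares lower. Short members such as Tex36 and Tex43 lie above 0 and long ones such as Tex15 and Tex14 below it, with r = -0.77 and -0.72.

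Spata18, Tex24, Tex13c2 and Spata32 had coding sequences of middling length (1611, 1053, 1590 and 1002 bases). The median of members with 800 to 2000 bases was -0.25. These genes were chosen for the lowest values, so their place below that median follows from the choice. Tex13c2 and Tex13c3, X-linked genes of the same family, stood at opposite ends. Tex13c2, with 1590 coding bases, was listed at 3.502, 3.35 and 2.65 FPKM in RNA-seq and 1.35, 0.964 and 1.61 in RNC-seq of Igf2bp3+/- spermatids. Tex13c3, with 657, was at 2.95, 2.82 and 3.68 and 6.31, 5.51 and 7.56. Their levels in the extract overlapped, and their polysome levels did not.

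The sequences at the start codons of these extremes are shown because translation begins there, in GRCm38 with the coordinates of the codon, 6 bases before it and 3 after it in lower case and the codon itself in capitals, read from the longest coding transcript of GENCODE M21. Among the 6 with the highest loading, the 5 shown are these.
Tex36, chr7:133602016-133602018, minus strand: gagagaATGgcc
Tex46, chr4:136610499-136610501, plus strand: gccacgATGttg
Spata46, chr1:170308882-170308884, plus strand: cagagcATGgat
Tex13c3, chrX:19481206-19481208, minus strand: ttgaccATGgcc
Tex22, chr12:113075281-113075283, plus strand: ttagagATGgac
The 5 of the lowest 6 with a complete annotated start are these.
Spata18, chr5:73651586-73651588, plus strand: cgcgcgATGgca
Tex24, chr8:27344446-27344448, plus strand: gaggacATGggt
Tex13c2, chrX:42489932-42489934, plus strand: ttgaccATGgcg
Spata32, chr11:103218352-103218354, minus strand: ggcagcATGggg
Tex14, chr11:87433810-87433812, plus strand: gaaaacATGtct
All of them, as well as Tex43, had A or G at the third base before the codon. So did 43 of 51 members with a mean of at least 1 FPKM (84.3%), and 85.5% of 8696 other genes. Tex13c2 and Tex13c3 had the same 6 bases before the codon. At this position the highest and lowest members were alike.

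In Igf2bp3-/- spermatids the calls had the directions seen in Igf2bp3+/-. Of 61 members tested 14 were called higher on polysomes and 9 lower, where 9.48% and 11% of all genes were. All 23 had been called in the same direction in Igf2bp3+/-, and 54 of 59 members tested in both genotypes had the same sign. The matching shares over all genes were not computed, so these counts do not set the members apart from other genes. Tex43, at 159, 141 and 157 FPKM in RNA-seq and 403, 263 and 466 in RNC-seq, had the highest value (1.27 ± 0.22, adjusted p = 0.00634), and Tex15, at 10.3, 9.74 and 8.12 and 1.75, 1.72 and 1.43, the lowest (-2.45 ± 0.19, adjusted p = 0.00123). Loading correlated with log2 coding length at r = -0.72 over 54 members (-0.79 without Igf2bp3-/- RNC-seq replicate 2) and -0.61 over 9103 other genes. The number called rested on single libraries: it was 35 (18 higher, 17 lower) without Igf2bp3-/- RNC-seq replicate 2, 6, 7 and 8 without RNA-seq replicates 1, 2 and 3, and 14 and 15 without RNC-seq replicates 1 and 3. Calls over all genes moved the same way, from 4068 of 19858 in the main fit to 6523 of 19942 without RNC-seq replicate 2. They were 1134, 1279 and 1688 without RNA-seq replicates 1, 2 and 3, and 2814 and 2435 without RNC-seq replicates 1 and 3. With the replicate block 20 members were called, with Spata9, Spata17, Spata32 and Tex264 lost and Tex16 gained. Tex38, Tex43, Tex46, Spata1 and Tex15 were called in all 16 fits.

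The Spata31 genes, a family expanded on chromosome 13 whose proteins are linked to the acrosome, had coding sequences of 2559 to 4083 bases. Spata31d1a and Spata31d1b matched at 94.4% over 1832 aligned coding bases, so their reads may have been divided between them, while the best alignments of the other pairs reached at most 79.8% over shorter stretches. Spata31 was listed at 56.5, 59.96 and 50.4 FPKM in Igf2bp3+/- RNA-seq, Spata31d1b at 42.1, 44.9 and 51.3 and Spata31d1a at 42.9, 49.5 and 41.9. Spata31d1d was at 40.7, 41.9 and 38.3 FPKM, so the 4 genes were close together, and Spata31d1c was far lower at 6.799, 6.81 and 6.34.

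All 5 were called lower on polysomes in Igf2bp3+/- spermatids, with log2 differences from -0.96 (Spata31d1a) to -0.50 (Spata31) and adjusted p from 0.000505 to 0.0175. In Igf2bp3-/- the differences were -0.44 to -0.11, and none passed the limit (adjusted p = 0.248 to 0.778, limma). Spata31 was called lower in 12 of the 16 Igf2bp3+/- fits (adjusted p = 0.0617 and 0.0777 without RNA-seq replicates 1 and 2, 0.0536 with median centring and 0.0538 without the intensity trend), and the other 4 genes were called in all.

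Replicate 2 was the highest Igf2bp3-/- RNC-seq library for each gene. Spata31 was listed there at 47.2, 91.0 and 54.6 FPKM, against 38.3, 34.8 and 44.9 in Igf2bp3+/- RNC-seq, and Spata31d1a at 22.6, 45.4 and 24.4 against 23.6, 22.1 and 23.0. All 3 libraries of Spata31 thus lay above the Igf2bp3+/- ones, while for Spata31d1a replicates 1 and 3 lay close to them. Without replicate 2 the Igf2bp3-/- loading differences were -0.72 to -0.39, and 4 genes were called lower (adjusted p = 0.00478 to 0.0447, limma), with Spata31 at adjusted p = 0.0605. The genotype difference of Spata31 in RNC-seq was 0.66 with replicate 2 and 0.38 without it, and that of Spata31d1a 0.35 and 0.036 (adjusted p from 0.744 to 0.989, limma).

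**Figure D4:**
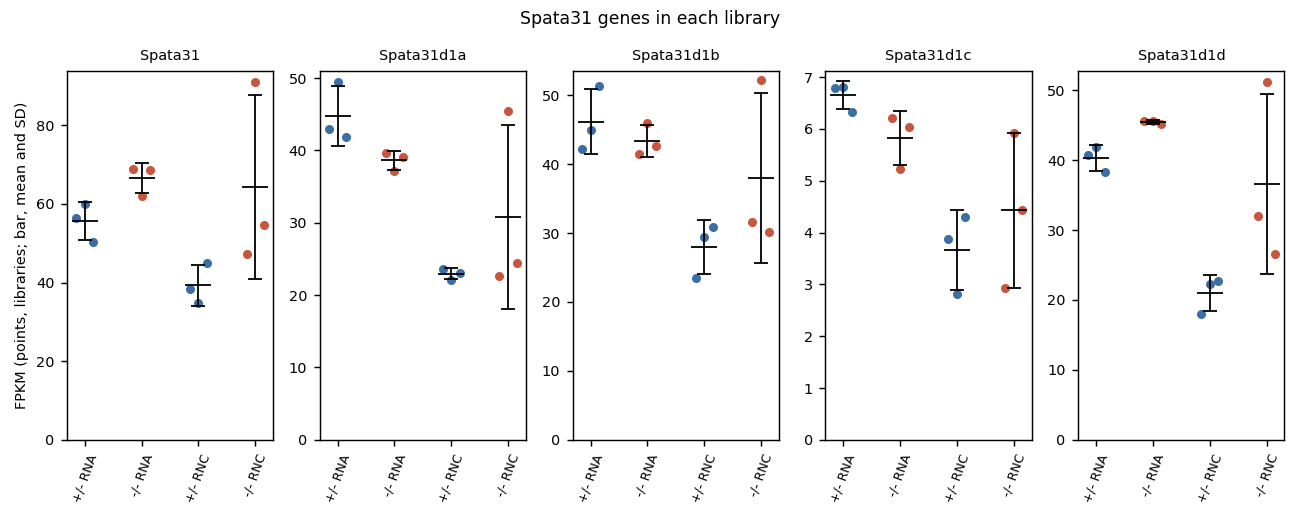
FPKM of the 5 Spata31 genes in each library (points), with the mean and SD of each group of 3 (black). RNC-seq lies below RNA-seq in Igf2bp3+/-, and Igf2bp3-/- RNC-seq replicate 2, the middle point of the last group, is the highest RNC-seq value of each gene.

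Other related members could be set side by side. Tex19.1, which restrains retrotransposons in germ cells and placenta, and Tex19.2 matched at 72.7% over 953 coding bases. Tex19.1 was listed at 0.484, 0.0814 and 0.319 FPKM in Igf2bp3+/- RNA-seq and 0, 0.109 and 0 in RNC-seq, and Tex19.2 at 0.722, 0.976 and 0.658 and 1.83, 1.29 and 1.35. Tex19.2 was thus higher on polysomes (0.84 ± 0.24, adjusted p = 0.0227), while for Tex19.1, listed at 0 in 2 RNC-seq libraries, the difference did not pass the limit (adjusted p = 0.0512). The call of Tex19.2 was lost without RNA-seq replicate 1 or 3 or RNC-seq replicate 1 of Igf2bp3+/- (adjusted p = 0.0688, 0.0783 and 0.0704).

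Spata2, which bridges the deubiquitinase CYLD to the LUBAC ubiquitin ligase, was at 3.33, 2.98 and 3.32 FPKM in Igf2bp3+/- RNA-seq, and its relative Spata2l was higher at 14.7, 14.6 and 16.2. Both were lower on polysomes, by log2 differences of -0.67 ± 0.17 and -0.89 ± 0.18 (adjusted p = 0.0143 and 0.00492). Spata2l was called in all 16 fits and Spata2 in 12, its call being lost with median centring, with quantile normalization and without Igf2bp3+/- RNA-seq replicate 1 or 3 (adjusted p = 0.0613, 0.0560, 0.0530 and 0.0517). Spata5, an AAA ATPase of ribosome maturation, was at 40.2, 41.6 and 41.0 FPKM against at most 0.104 for the symbol Spata5l1. The latter is annotated without a coding sequence, so the levels of the mRNAs for these partners cannot be compared.

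No member changed between the genotypes in RNA-seq at adjusted p under 0.05 (0 of 61 tested, limma), where 52 of 20352 genes did, 0.256%. At an unadjusted p under 0.05 there were 18 members, 16 higher and 2 lower in Igf2bp3-/-, a share of 29.5% beside 15.7% of all genes. For 27 members, 22 higher and 5 lower, every Igf2bp3-/- library lay on the same side of every Igf2bp3+/- one, or 44.3% beside 22.7% of all genes. Without Igf2bp3+/- replicate 3, which leaves fewer libraries to overlap, there were 30 such members (24 higher, 6 lower), 49.2% beside 33.2%. The median difference of the members was 0.13 and that of all genes 0.05 on the log2 scale, with 44 of 61 members above 0 (72.1% beside 56.2% of all genes). The split of directions depended on the scaling. With quantile normalization the members under 0.05 by unadjusted p were 9 higher and 6 lower, with a member median of 0.04 and 35 of 61 above 0, and in the fit over all 12 libraries 7 were higher and 2 lower. Over all genes the numbers were 1605 and 1430 with quantile normalization and 1027 and 514 in the fit over all 12 libraries, beside 2107 and 1083 in the main fit.

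Spata46 had the smallest p. It was listed at 190.3, 192 and 149.9 FPKM in Igf2bp3+/- and at 252, 260.3 and 287 in Igf2bp3-/- RNA-seq, a log2 difference of 0.59 ± 0.11 (adjusted p = 0.122, limma). The groups did not overlap, and with each library centred on its median this was the single member past the limit (0.59, adjusted p = 0.0352). Tex36 went from 126, 134 and 96.5 FPKM to 152, 165 and 192, a log2 difference of 0.53 ± 0.14 (adjusted p = 0.18, limma), and Tex21 from 110.4, 106 and 104 to 127, 133 and 137, one of 0.31 ± 0.08 (adjusted p = 0.169, limma). Both genes were higher in every Igf2bp3-/- library than in any Igf2bp3+/- one.

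On the lower side, Tex16, an X-linked gene, was at 0.718, 1.08 and 1.06 FPKM in Igf2bp3+/- and 0.687, 0.267 and 0.419 in Igf2bp3-/- RNA-seq (-0.97 ± 0.31, adjusted p = 0.223, limma). Tex24 was at 10.3, 10.0 and 8.34 and 8.07, 5.62 and 7.99 FPKM (-0.41 ± 0.16, adjusted p = 0.287, limma). Neither gene's groups overlapped. Tex13c2, at 3.502, 3.35 and 2.65 and 2.52, 2.08 and 2.65 FPKM, overlapped between the genotypes (-0.37 ± 0.17, adjusted p = 0.323, limma).

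Coding length also moved with these differences. Across the 54 members the RNA-seq difference correlated with log2 coding length at r = -0.57 and rho = -0.65, and across 9102 other genes at r = -0.36, shorter members being higher in Igf2bp3-/-. Without Igf2bp3+/- RNA-seq replicate 3 the members' r was -0.39, the number with an unadjusted p under 0.05 was 16 (12 higher, 4 lower) beside 13.4% of all genes, and the median difference was 0.09 beside 0.01. The Leydig cell and blood marker sums given earlier were higher in the Igf2bp3-/- libraries, and the round spermatid marker sum was higher as well. The part of length, of other cells and of the stage of the spermatids in the members' differences was not tested.

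In RNC-seq no member passed the limit either (0 of 58 tested, limma), where 22 of 19051 genes did, 0.115%. At an unadjusted p under 0.05 there were 8 members, all higher in Igf2bp3-/-, or 13.8% beside 6.48% of all genes, and the same number did not overlap between genotypes, 13.8% beside 11.3%. Without Igf2bp3-/- replicate 2, 18 did not overlap (17 higher, 1 lower), 31% beside 20.4%. The 8 became 3 and 4 without Igf2bp3+/- replicates 1 and 3, 7 (5 higher, 2 lower) without Igf2bp3+/- replicate 2, 4 without Igf2bp3-/- replicate 1 and 11 without Igf2bp3-/- replicate 2, and 4 higher and 2 lower with median centring or 4 and 3 with quantile normalization. Over all genes 1022 were higher and 213 lower in the main fit. These were 528 and 440 with median centring and 497 and 482 with quantile normalization. The median difference was 0.19 for members and 0.13 for all genes, and 49 of 58 members lay above 0 (84.5% beside 65.3%). Centring each library on its median, which moves the median of all genes by -0.12, left a member median of 0.07 with 35 of 58 above 0. All genes then had a median of 0.008, with 9716 of 19051 above 0.

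Tex38, the partner of the palmitoyltransferase ZDHHC19 in sperm head shaping, was at 220.5, 180.4 and 192 FPKM in Igf2bp3+/- and 262, 318 and 331 in Igf2bp3-/- RNC-seq, with no overlap (0.62 ± 0.19, adjusted p = 0.648, limma). Spata31d1d was at 18.04, 22.2 and 22.7 and 32.1, 51.1 and 26.5 FPKM, also without overlap (0.75 ± 0.26, adjusted p = 0.689, limma), and its difference was 0.48 without Igf2bp3-/- replicate 2. Tex19.1, listed at 0, 0.109 and 0 and 0.217, 0.197 and 0.318 FPKM, had 1.41 ± 0.49 (adjusted p = 0.715, limma). With 2 Igf2bp3+/- libraries at 0 this value depends on the pseudocount, and it was 3.45 with 0.01 FPKM and 0.26 with 1.

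The lowest RNC-seq differences by p belonged to Tex47, Spata4 and Spata1. Tex47 was at 62.3, 37.3 and 52.8 FPKM in Igf2bp3+/- and 38.3, 31.4 and 41.7 in Igf2bp3-/- RNC-seq (-0.43 ± 0.23, adjusted p = 0.805, limma). Spata4 was at 519.8, 292 and 449 and 326, 249.6 and 372 FPKM (-0.39 ± 0.25), and Spata1 at 25.3, 17.5 and 23.7 and 22.0, 15.5 and 16.0 (-0.31 ± 0.23). All 3 overlapped between the genotypes.

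**Figure D5:**
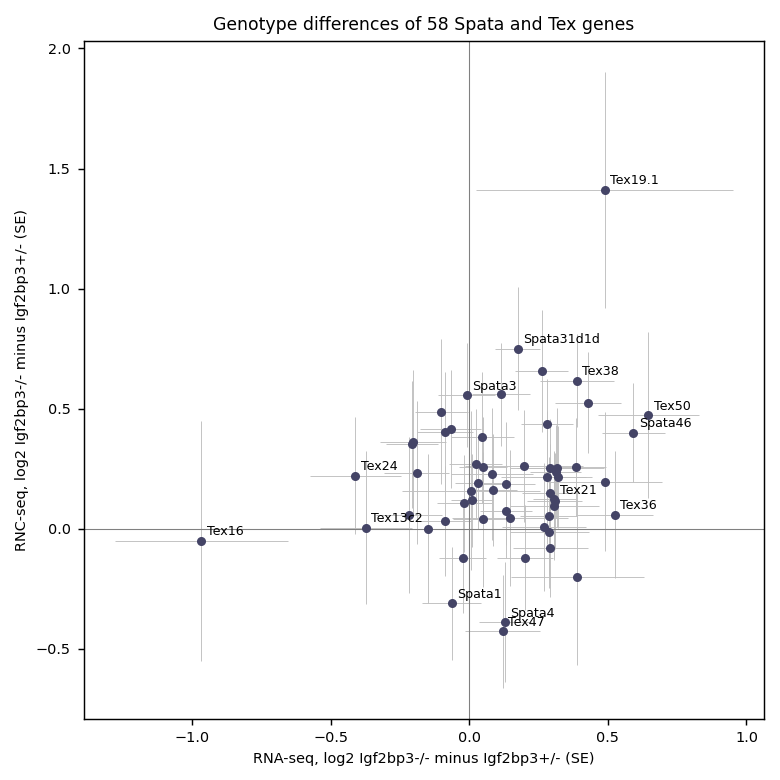
Log2 difference between Igf2bp3-/- and Igf2bp3+/- in RNC-seq against that in RNA-seq for the 58 members tested in both, with SE bars from limma. In RNC-seq 49 of the 58 lie above 0, and no member passed the limit on either axis.

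Translational efficiency, the RNC-seq level over the RNA-seq level, was compared between genotypes as an interaction over all 12 libraries. It was past the limit for 0 of 58 members and for 1 of 18414 genes, 0.00543%. At an unadjusted p under 0.05 there were 2 members, Spata3 and Tex24, both higher in Igf2bp3-/-, or 3.45% beside 7.13% of all genes. Leaving out both assays of a replicate gave 0 to 5 such members, with 0 without Igf2bp3+/- replicate 1, 4 (1 higher, 3 lower) without Igf2bp3+/- replicate 2 and 5 without Igf2bp3-/- replicate 3. In the fits named, in that order, the share of all genes was 4.40%, 8.50% and 10.6%. The members' median was 0.07 and that of all genes 0.06, with 31 of 58 above 0. Median centring, which moves the median of all genes by -0.13, turned the direction, giving 0 such members higher and 4 lower, with a member median of -0.06 and 24 of 58 above 0. All genes turned as well, with 492 higher and 1080 lower, a median of -0.065 and 8148 of 18414 above 0. Quantile normalization gave 2 members higher and 2 lower, beside 698 and 717 of all genes. The replicate number as a block gave 0 members in either direction, beside 1134 and 368 of all genes.

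Spata3 showed 0.57 ± 0.24 (adjusted p = 0.689, limma). Its RNA-seq levels overlapped, at 383, 388 and 335 and 339, 349 and 412 FPKM, and its RNC-seq levels did not, at 271, 299 and 260.5 in Igf2bp3+/- and 518, 415 and 313 in Igf2bp3-/-. Tex24 showed 0.63 ± 0.27 and Spata32 0.44 ± 0.22 (adjusted p = 0.689 and 0.708, limma). Tex47 (-0.55 ± 0.27), Spata4 (-0.52 ± 0.28) and Spata24 (-0.37 ± 0.24) were the lowest by p, with adjusted p = 0.712, 0.716 and 0.735 (limma). The efficiency difference correlated with log2 coding length at r = 0.53 over 54 members and 0.37 over 9102 other genes. Without replicate 2 of Igf2bp3-/- in both assays the members' r was 0.20, and 0 members had an unadjusted p under 0.05.

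By role, the median genotype difference in RNA-seq was 0.40 for the meiosis and germline genes, 0.24 for the tail group, 0.11 for the head group and 0.02 for the genes that act in many tissues. In RNC-seq it was 0.06, 0.25, 0.40 and 0.13. The RNA-seq value of the meiosis and germline genes rests on rare transcripts. Tex19.2, Tex11, Tex19.1 and Spata22 had means of 0.785, 0.540, 0.295 and 0.0763 FPKM in Igf2bp3+/- RNA-seq. The more abundant Tex14 and Tex15 had lower means in Igf2bp3-/- (12.4 and 9.38 FPKM) than in Igf2bp3+/- (13.2 and 10.9). In RNC-seq 65.3% of all genes stood above 0. So did 10 of 10 genes of the tail group, 7 of 8 that act in many tissues and 4 of 5 of meiosis and germline. Of those with no role assigned, 17 of 24 did. The head group stood above 0 in RNC-seq for 11 of 11 members, 5 of them Spata31 genes, whose Igf2bp3-/- value was highest in replicate 2. Without that library the head group was again above 0 for 11 of 11, with a median of 0.21, and the tail group had 0.42. Without Igf2bp3+/- RNA-seq replicate 3 the RNA-seq median was 0.33 for the meiosis and germline genes, 0.085 for the tail group, 0.14 for the head group and 0.064 for the genes that act in many tissues.

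Partners of the members were followed as a list. Of 18 genes whose proteins act with a member, such as Meiob, Cep55, Zdhhc19 and Cyld, 17 were listed. None passed the limit between genotypes in RNA-seq, RNC-seq or translational efficiency (limma; 9 of 17 were above 0 in RNA-seq). In Igf2bp3+/- spermatids 3 of the 17 were called higher and 7 lower on polysomes, with a median of -0.60, where 17.3% and 26.3% of all genes were. In Igf2bp3-/- 0 were called higher and 2 lower, where 9.48% and 11% of all genes were. Ppp3r2, the regulatory subunit of the sperm calcineurin that SPATA33 anchors, was higher in Igf2bp3+/- (0.62, adjusted p = 0.00633, limma). Its catalytic partner Ppp3cc was lower there (-0.70, adjusted p = 0.00193, limma). In Igf2bp3-/- neither passed the limit (0.41 and -0.44, adjusted p = 0.0733 and 0.104, limma).

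Promoters of 53 members were listed by RefSeq in GRCm38.p6, as 64 windows of 250 bases before to 50 after a gene start, and were searched because postmeiotic genes are often read by CREM and RFX factors. The CRE motif TGACGTNA, on either strand, was in 2 of 64 member windows (3.12%, Spata6 and Spata7) and in 2.93% of 32851 windows. The X-box half-site GTTGCCA, on either strand, was in 4 member windows (6.25%, Spata33, Tex33, Spata4 and Spata31d1a) and in 4.38% of all windows. Of the matches in the 10 highest members, those of Spata6 and Tex33 are shown, with 20 bases on each side and the motif in capitals, because they lie wholly before the gene start, while those of Spata33 and Spata4 lie at it.
Spata6, chr4:111719856-111719903, plus strand: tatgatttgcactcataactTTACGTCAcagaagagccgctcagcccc
Tex33, chr15:78395923-78395969, minus strand: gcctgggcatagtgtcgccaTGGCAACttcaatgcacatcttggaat
The Spata6 match began 134 bases before the gene start and the Tex33 match 37 bases before it. A match is a run of letters and not a measured site.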

How the data were processed

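RNA-seq and RNC-seq were measured in 12 libraries, 3 per genotype and assay. The authors trimmed reads (Trim Galore 0.6.6), aligned them with HISAT2 and quantified genes with StringTie 2.1.7, and deposited one table of FPKM values, with no counts, so depth, counting intervals and floors are not given. The annotation release and any use of strand are not given in the sources used here, and the labels and the study's methods name different library kits. A total of 25 symbols turned into dates by a spreadsheet were left out.

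Log2 of FPKM plus 0.1 was fitted across all genes with a mean above 0.1 FPKM (limma 3.58.1, intensity trend, Benjamini-Hochberg, limit 0.05, two-sided, R 4.3.3): genotype within each assay, assay within each genotype, and their interaction (translational efficiency). The fits were tested on simulated data with noise drawn independently for each gene. Those data held no shift shared across a library, so they do not show how the fits behave under one. Members, roles, partner and marker lists and the lengths compared were chosen with earlier results of these data known. Named members were the 10 highest, the 3 smallest p in each direction of a genotype comparison, the 6 highest and 6 lowest in loading, related genes and those at or below 0.1 FPKM. Members named beyond these were chosen after their values were seen. Positions and lengths came from GENCODE M21 (GRCm38), copies from BLAST 2.17.0 (95% identity over 50% of a transcript), and promoters from RefSeq. Replicates of a group correlated at 0.961 to 0.990 and shared at most 0.0489% of values, so none was a repeated library. Alternatives were other pseudocounts, filters and scalings, library weights, no trend, a replicate block and each library left out.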

Additional observations from a re-analysis of the deposited data

How the results depend on the processing

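The number of members past the limit in a genotype comparison was 0 in RNC-seq and translational efficiency under every alternative run, leaving out a library included (0 to 0), and in RNA-seq it was 0 except with median centring (1, Spata46). At an unadjusted p under 0.05 the counts were 18 in RNA-seq, 8 in RNC-seq and 2 in translational efficiency, and over the alternatives they ran from 7 to 21 higher and 1 to 6 lower, 3 to 11 and 0 to 3, and 0 to 5 and 0 to 4. In Igf2bp3+/- loading the count of 41 ranged from 30 to 44 as single libraries were left out. In Igf2bp3-/- the count of 23 ranged from 6 to 35 as single libraries were left out, and it was 12 without the intensity trend. Over all genes the calls ranged from 6593 to 8858 in Igf2bp3+/- and from 1134 to 6523 in Igf2bp3-/- as single libraries were left out. Of the named loading differences in Igf2bp3+/-, Spata4 went from 0.24 to -0.072 and Tex33 from 0.05 to -0.28 with quantile normalization, and Tex33 ranged from -0.012 to 0.10 as single libraries were left out, turning without RNA-seq replicate 3. The cause was not tested.

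The groups share replicate numbers, but the libraries of the 2 assays with the same number did not all deviate together (r = 0.21, -0.10 and 0.20 in Igf2bp3+/-, and -0.05, 0.17 and 0.13 in Igf2bp3-/-), and nothing says that a number marks an extract, although the study's methods take both assays from the extract of one mouse. With a replicate block the counts were 40 in Igf2bp3+/- and 20 in Igf2bp3-/- loading and 0 in the genotype comparisons. Depth is unknown, which limits members under 1 FPKM most, and with 3 libraries a group a difference that misses the limit does not show equal levels.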
